A study of Mus musculus with 8 samples.

Results

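Large ribosomal subunit assembly factors and abundant nucleolar proteins were followed as a set of 32 genes in mouse embryos injected to deplete ZP3, a protein of the zona pellucida. The genes were chosen by name, as known factors of this pathway and with earlier results of these data known. All 32 were found among the 52636 identifiers of the counts table. The embryos were wild-type B6C3F1 x CD1, collected from the oviduct as zygotes and cultured. The 3 libraries labelled ZP3 Trim-away came from zygotes injected 15 h after hCG, the hormone given to induce ovulation, with mCherry-Trim21 mRNA, a green fluorescent dextran marker and the anti-ZP3 antibody. In Trim-away, the ubiquitin ligase TRIM21 binds the antibody and takes its target protein to the proteasome, so that it acts on the protein. The 4 buffer libraries came from zygotes given the same mRNA and dextran with the buffer of the antibody, and 1 library came from non-manipulated embryos. The text of the study has one more Trim-away library and one fewer buffer library than the labels, so that one of the libraries may stand in the wrong group. The groups here follow the labels, and which library this would be was not tested. Each library was made from a pool of embryos on the day after injection. The labels place the ZP3 Trim-away embryos at embryonic day 0.5 and the other embryos at day 1.5. The study describes the zygotes depleted of ZP3 as arrested before cleavage. Depletion of ZP3 and a difference in stage therefore cannot be told apart in any comparison below.

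The large (60S) ribosomal subunit is built in the nucleolus, where ribosomal RNA is transcribed, cut, folded and joined with ribosomal proteins. Many assembly factors bind the growing particle in turn, and GTPases and other energy-using enzymes release them again before the particle leaves the nucleus. The mouse zygote starts without a working nucleolus of this kind. It holds compact nucleolar precursor bodies from the oocyte, and nucleoli are rebuilt around them as ribosomal RNA synthesis resumes with embryonic genome activation (EGA).

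Total counts were 13228428 to 15379933 in libraries with the label ZP3 Trim-away, 17615416 to 22427747 in the buffer libraries and 22248022 in the non-manipulated library. Levels are given as CPM, counts scaled to a library size of 1e6 after TMM scaling, which corrects for a few genes taking up a larger share of one library. Reads of Trim21, from the injected or the embryo's own mRNA, were found at 2136, 0 and 3.55 CPM in the libraries labelled Trim-away 1, 2 and 3, against 962 to 8691 CPM in the buffer libraries and 0 CPM in the non-manipulated library. Libraries 2 and 3 labelled Trim-away thus hold almost none of the mRNA that their label names. The main results are therefore also given without them. Zp3 mRNA, which the antibody does not bind, had 28.4, 55.0 and 55.9 CPM in the libraries labelled Trim-away, against 106 to 142 CPM in buffer. It was below buffer in all 3 libraries without passing the test described below (log2 fold change -1.36, adjusted p = 0.055 from edgeR). Oocyte and embryo transcripts such as Dppa3, Gdf9 and Zscan4d were found in all 8 libraries. Of 8 markers of cumulus cells, 5 (Inha, Amh, Fshr, Ptx3 and Foxl2) had no count in any library, and the 8 markers summed to 7.86 to 49.0 CPM in the libraries labelled Trim-away, 1.17 to 20.99 CPM in buffer and 0 CPM in the non-manipulated library. Markers of oviduct epithelium summed to 16.2 to 179 CPM in the libraries labelled Trim-away and 280 to 360 CPM in buffer. Most of these reads were of Epcam except in Trim-away 1, which had 5.10 CPM of Epcam and 11.1 CPM of the oviduct gene Ovgp1. In the non-manipulated library, Epcam gave 280 of 286 CPM. Ovgp1 had 0 to 11.1 CPM under the Trim-away label and 0 to 18.3 CPM in buffer. Foxj1, Muc1 and Pax8 each had at most 8.41 CPM under that label and at most 0.247 CPM in buffer. Markers of spermatozoa and blood stayed below 7 CPM in every library. The part of these cells in the results was not tested.

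The start sites of the genes are described first. They were searched for 4 short motifs after the test described below had been run, and differences in share were not tested. RefSeq gives a promoter window of 300 bases (250 before to 50 after the start, build GRCm38.p6) for 25 of the 32 members, and 7 have none in the table used (Bop1, Gnl2, Gnl3l, Nop53, Npm1, Rpf1 and Rrs1). The ETS core motif CCGGAAGT, searched on both strands, was present in 6 of these 25 genes (Ebna1bp2, Nip7, Noc2l, Rpf2, Rrp15 and Wdr74), or 24%, and in 9.26% of all genes tested that have a window. The E-box CACGTG was present in 4 (Nle1, Nop2, Pes1 and Rpf2), or 16%, against 11.3% of genes tested. The motif GATGGCGG, the core bound by YY1, was present in 2 (Nip7 and Nle1), or 8%, against 4.03%, and the palindrome CTCGCGAG in 1 (Nol9), or 4%, against 2.39%. All 10 members that passed the test described below have a window, and 4 of them hold the ETS core, against 2 of the 15 others. These matches describe letters in a window and no binding was measured. The median GC content of the members' windows was 59.2%, close to the 59.7% of the windows of all genes tested. The median count of CpG, a C followed by a G, was 24 in the members' windows against 19 in those of all genes tested. Each of the 4 motifs holds a CpG, and the part of this in the shares was not tested.

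The stretches from 150 bases before to 30 bases after the start are shown for 4 of the 6 genes that hold the ETS core (Noc2l and Rrp15 are not shown) and for Rsl24d1, the member with the smallest p, which holds none of the 4 motifs. Capitals mark the ETS core on either strand (CCGGAAGT or ACTTCCGG) and, in Rpf2, the E-box, and all are written on the strand of the gene.
Ebna1bp2 (chr4:118620649-118620828, plus strand): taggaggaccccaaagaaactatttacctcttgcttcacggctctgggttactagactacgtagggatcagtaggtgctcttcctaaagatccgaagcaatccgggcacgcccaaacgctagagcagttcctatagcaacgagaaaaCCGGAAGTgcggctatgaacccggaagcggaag
Nip7 (chr8:107056727-107056906, plus strand): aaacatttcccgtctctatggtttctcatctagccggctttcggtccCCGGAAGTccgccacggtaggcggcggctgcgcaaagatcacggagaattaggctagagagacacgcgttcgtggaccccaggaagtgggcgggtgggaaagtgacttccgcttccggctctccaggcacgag
Rpf2 (chr10:40246950-40247129, minus strand): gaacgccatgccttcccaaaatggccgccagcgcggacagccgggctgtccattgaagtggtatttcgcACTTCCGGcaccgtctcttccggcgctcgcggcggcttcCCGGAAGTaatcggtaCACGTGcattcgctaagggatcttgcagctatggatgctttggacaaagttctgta
Wdr74 (chr19:8735689-8735868, plus strand): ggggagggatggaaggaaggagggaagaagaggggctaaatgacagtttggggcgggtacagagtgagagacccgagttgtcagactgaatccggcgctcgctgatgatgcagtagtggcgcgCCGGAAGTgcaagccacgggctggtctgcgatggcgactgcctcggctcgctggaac
Rsl24d1 (chr9:73113319-73113498, plus strand): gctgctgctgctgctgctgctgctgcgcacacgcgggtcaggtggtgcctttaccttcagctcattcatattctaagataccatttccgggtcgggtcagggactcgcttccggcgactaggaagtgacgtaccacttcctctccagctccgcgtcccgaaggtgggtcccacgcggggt
Rpf2 carries the ETS core at 2 places and the other 3 genes with the motif at 1 place in the stretch shown.

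Leaving aside Npm1, Ncl and Npm3, 10 of 29 members were lower in libraries with the label ZP3 Trim-away than in buffer. None of Npm1, Ncl and Npm3 passed the test. They were set apart as nucleolar proteins and not by mRNA level, as Npm3 averaged 11.2 CPM in buffer. Of the 32 members, all of which passed the filter on low counts, 10 were lower, 0 were higher and 22 did not pass the test (edgeR quasi-likelihood test with Benjamini-Hochberg adjustment over 13641 genes, adjusted p under 0.05). Over all genes tested, 3.91% were lower and 2.98% were higher. The 10 factors were Rsl24d1, Ebna1bp2, Gtpbp4, Rpf2, Mrto4, Nip7, Las1l, Gnl3, Nop16 and Rrp15, and their mean levels were 2.59-fold to 6.81-fold lower. In the same test, 18 members were lower and 0 higher at an unadjusted p under 0.05. The share of all genes at this unadjusted threshold was not counted. By rank of p over the 13641 genes, in either direction, these 18 lay from place 25 (Rsl24d1) to place 1903 (Rrp1). The next member, Gnl2, did not reach the threshold and held place 3637. At least 1903 and fewer than 3637 of all genes therefore reached it, in either direction. The median log2 fold change, ZP3 Trim-away over buffer, was -1.50 over the members and -0.04 over all genes tested, and it was negative in 30 of the 32 members (93.8%) against 51.0% of all genes tested.

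**Figure D1:**
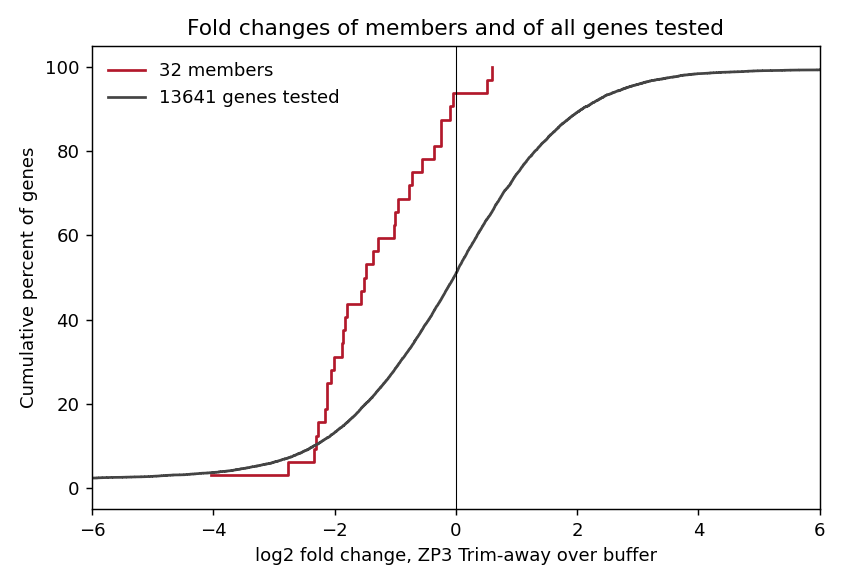
Cumulative percent of genes (vertical axis) against the log2 fold change of ZP3 Trim-away over buffer (horizontal axis) for the 32 members and for all 13641 genes tested. The curve of the members lies left of that of all genes, with medians of -1.50 and -0.04.

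The 3 libraries labelled Trim-away were all below the 4 buffer libraries for 18 members and all above them for 0, and the groups overlapped for 14. Over all genes tested, 15.5% were below without overlap and 13.1% above. The non-manipulated library lay above all 3 libraries labelled Trim-away for each of these 18 members, and within the range of the buffer libraries for 9 of the 10 that passed the test. The exception was Gtpbp4. Over all members, the non-manipulated library lay within the buffer range for 19, above it for 8 and below it for 5. It lay above all libraries labelled Trim-away for 27 members and below all of them for 2. The shares of all genes tested in these positions were not counted. With 1 non-manipulated library there is no test against it. In a pool of embryos, fewer cells of a type and less RNA per cell cannot be told apart. The labels do not say whether the pools came from separate collections, so the p-values measure only the spread between these pools.

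Summed over the 32 members, the libraries labelled Trim-away held 3907, 4386 and 4011 CPM, against 9188, 8161, 7956 and 10011 CPM in buffer and 8535 CPM in the non-manipulated library. The groups were far apart. Ncl, Npm1 and Npm3 together gave 1849.7, 1371 and 1309 CPM in the libraries labelled Trim-away, against 1730.5, 1417, 1513 and 1835 CPM in buffer, and these ranges overlapped. The other 29 members gave 2057, 3015 and 2702 CPM under the Trim-away label against 7458, 6745, 6443 and 8176 CPM in buffer. Their means were 2591 ± 488 CPM under the Trim-away label (SD, n = 3) and 7205 ± 774 CPM in buffer (SD, n = 4), 2.78-fold lower. As a share of all counts, the 32 genes took 0.342% to 0.437% in the libraries labelled Trim-away, 0.825% to 0.964% in buffer and 0.877% in the non-manipulated library.

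**Figure D2:**
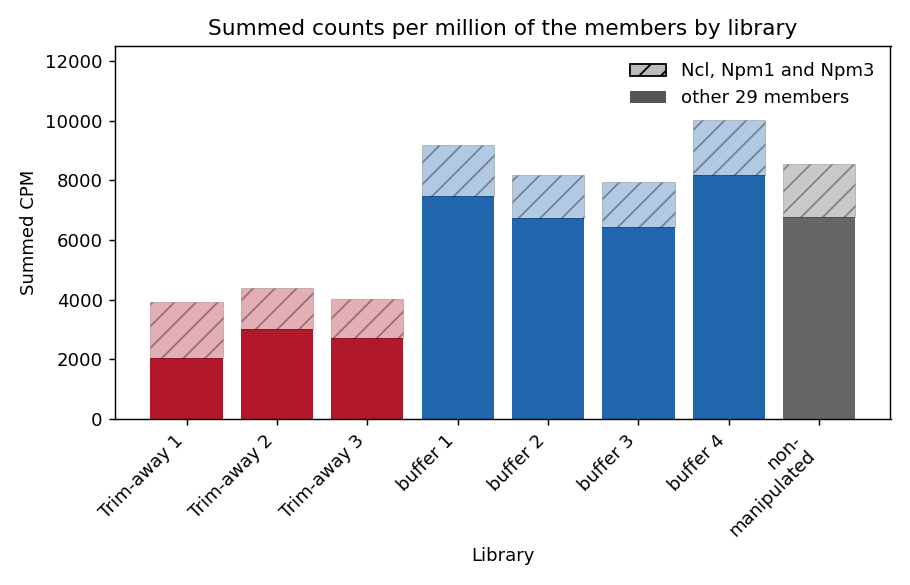
Summed CPM of the members (vertical axis) in each library (horizontal axis), split into Ncl, Npm1 and Npm3 (hatched) and the other 29 members (solid); each bar is 1 library. The solid part is 2057 to 3015 CPM in the libraries labelled Trim-away and 6443 to 8176 CPM in buffer, whereas the hatched part overlaps between the groups.

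Nucleophosmin (Npm1) and nucleolin (Ncl) are abundant proteins of the nucleolus, the first a chaperone of its outer granular layer and the second an RNA-binding protein that works with ribosomal RNA transcription and processing. Npm1 (chromosome 11, 33152287 to 33163206, minus strand) had 1443, 827 and 822 CPM in the libraries labelled Trim-away, against 1108, 1028, 894 and 1224 CPM in buffer and 952 CPM in the non-manipulated library. The first library labelled Trim-away was the highest of all and the other two the lowest, so the groups overlapped. Its log2 fold change was -0.05 with a 95% interval of -0.62 to 0.53 (adjusted p = 0.957 from edgeR), and its sign turned under other scalings (0.02 with DESeq2's size factors). Ncl (chromosome 1, 86344719 to 86359400, minus strand) had 391, 532 and 467 CPM under the Trim-away label, against 611, 378, 606 and 602 CPM in buffer and 814 CPM in the non-manipulated library. Buffer 2 was below all 3 libraries labelled Trim-away, and the log2 fold change was -0.24 with an interval of -0.79 to 0.30 (adjusted p = 0.658 from edgeR). Npm3, a smaller relative of Npm1, had 15.6, 12.1 and 20.03 CPM under the Trim-away label, against 11.97, 10.1, 12.7 and 10.01 CPM in buffer and 9.45 CPM in the non-manipulated library (log2 fold change 0.51, interval -1.19 to 2.20, adjusted p = 0.785 from edgeR). The intervals of Npm1 and Ncl leave out the decreases seen in the factors that passed the test, while that of Npm3 is wide. Reads of Npm1 and Ncl could in part come from near-identical processed pseudogenes, and 133 exon bases of Ncl are shared with the small nucleolar RNA Snora75.

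PES1, BOP1 and WDR12 form the PeBoW complex, which is needed to process the ribosomal RNA precursor into the RNAs of the large subunit. No gene of the complex passed the test. Pes1 had 34.5, 29.3 and 42.0 CPM in the libraries labelled Trim-away, against 67.3, 39.1, 99.4 and 27.7 CPM in buffer and 58.0 CPM in the non-manipulated library (log2 fold change -0.73, interval -1.91 to 0.46, adjusted p = 0.505 from edgeR). Bop1 was low throughout, at 4.49, 5.48 and 2.78 CPM under the Trim-away label against 12.1, 2.66, 9.17 and 10.5 CPM in buffer (adjusted p = 0.697 from edgeR), and the non-manipulated library held 3 counts of it (0.131 CPM). For both genes 1 buffer library lay below all libraries labelled Trim-away. Wdr12 had 25.1, 90.9 and 88.4 CPM under the Trim-away label, against 276, 219.9, 164 and 341 CPM in buffer and 237 CPM in the non-manipulated library. Here the groups were separate, and the log2 fold change of -1.88 (standard error 0.48) had an adjusted p of 0.0508 from edgeR, at the edge of the threshold. It passed with limma-voom, with DESeq2, on RPKM and without the filter on low counts. It did not pass with DESeq2's size factors in edgeR (adjusted p = 0.05004 from edgeR). Nor did it pass with the replicate number as a block or with any 1 library left out.

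**Figure D3:**
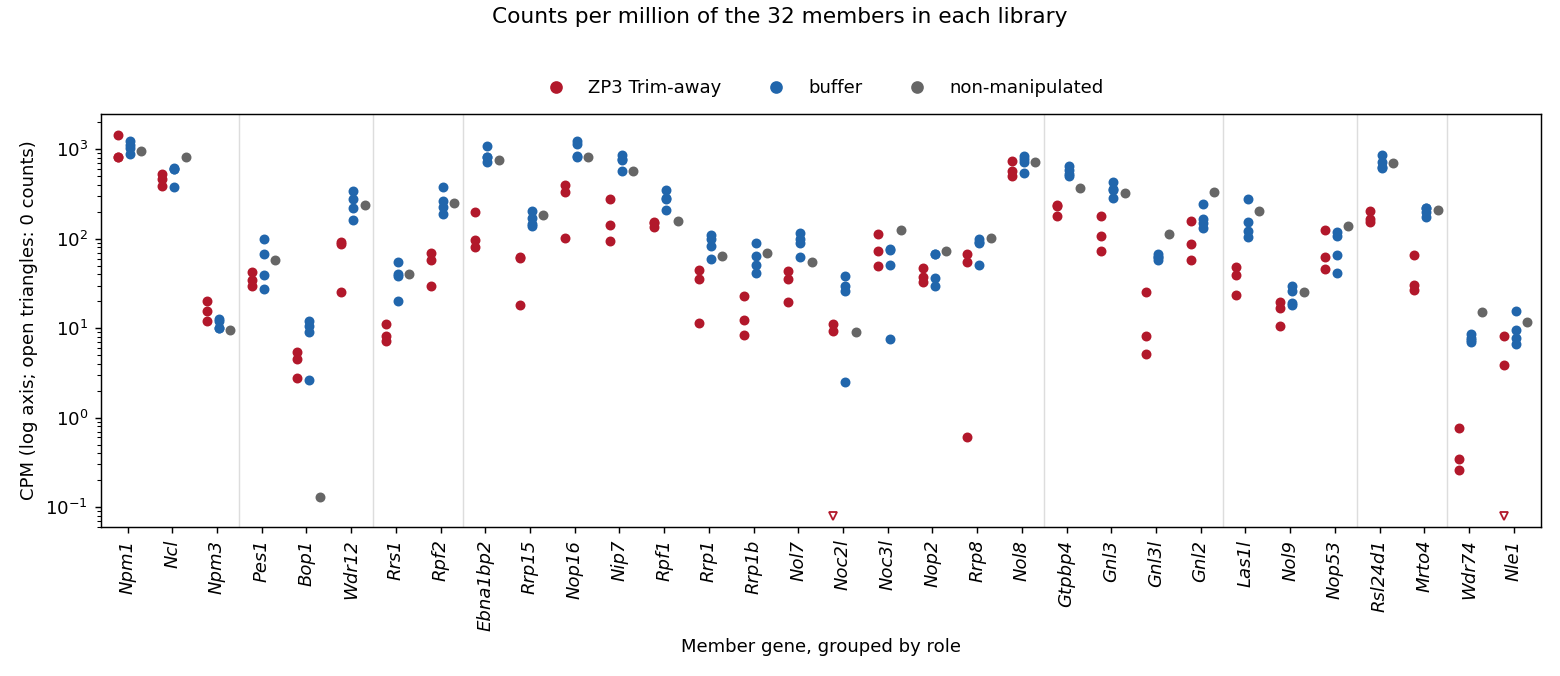
CPM of the 32 members (log axis) in each library, with the genes grouped by role; red points are libraries labelled ZP3 Trim-away, blue points buffer, the grey point non-manipulated, and open triangles mark libraries with 0 counts, drawn at the foot of the axis. Red points lie below all blue points for 18 genes, and overlap them for 14, among them Npm1, Ncl and Npm3.

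RPF2 and RRS1 bring the 5S ribonucleoprotein, which is 5S ribosomal RNA with the ribosomal proteins RPL5 and RPL11, to the growing particle, as known from yeast. Rpf2 (chromosome 10, 40223246 to 40247036, minus strand) had 29.9, 57.6 and 69.1 CPM in the libraries labelled Trim-away, against 224, 266, 190.1 and 375 CPM in buffer and 252 CPM in the non-manipulated library. Every library labelled Trim-away was far below buffer, with a mean of 52.2 ± 20.1 CPM (SD, n = 3) against 264 ± 80.2 CPM in buffer (SD, n = 4), and the log2 fold change was -2.34 (standard error 0.39, adjusted p = 0.0118 from edgeR). Rrs1 averaged 8.76 ± 2.05 CPM (SD, n = 3) under the Trim-away label, against 38.3 ± 14.1 CPM in buffer (SD, n = 4), and its groups did not overlap either, but its log2 fold change of -2.13 did not pass (adjusted p = 0.0798 from edgeR). Of the cargo, Rpl5 had 25.6, 38.7 and 32.9 CPM under the Trim-away label, against 78.0, 84.4, 88.2 and 127 CPM in buffer and 75.0 CPM in the non-manipulated library, and was lower (log2 fold change -1.54, SE 0.37, adjusted p = 0.0425 from edgeR). Rpl11 had 14.9, 36.4 and 49.0 CPM under the Trim-away label, against 83.7, 73.1, 85.1 and 97.0 CPM in buffer. Its groups did not overlap, but it did not pass (log2 fold change -1.34, adjusted p = 0.129 from edgeR). Rpl5 was 1 of 11 tested genes of the p53 response to ribosomal stress, a list that also held Trp53, Mdm2 and Cdkn1a, and no other gene of that list passed the test in either direction.

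Early pre-60S factors bind the particle while it is still in the nucleolus. Of 13 members placed here under that role, 4 were lower. The roles were assigned by hand, and whether each member, Nol7 among them, belongs to its role was not tested. Ebna1bp2, the relative of yeast EBP2, which works with RRS1 in yeast, had the largest fold change among the 10 members that passed. Ebna1bp2 (chromosome 4, 118620799 to 118627776, plus strand) had 80.1, 200.01 and 98.01 CPM in the libraries labelled Trim-away, against 817, 813, 715 and 1086 CPM in buffer and 763 CPM in the non-manipulated library. The highest library labelled Trim-away was thus well below the lowest buffer library, and the log2 fold change was -2.77 (SE 0.37, adjusted p = 0.00612 from edgeR). Per kilobase of exon, Ebna1bp2 averaged 35.5 ± 18.2 CPM (SD, n = 3) and was number 7 among the members in the libraries labelled Trim-away, against 241 ± 44.8 CPM (SD, n = 4) and number 4 in buffer.

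Nop16, known in yeast from work on the 60S subunit, was the most abundant member in buffer per kilobase of exon. Nop16 (chromosome 13, 54584185 to 54590090, minus strand) had 102, 397 and 329 CPM in the libraries labelled Trim-away, against 1144, 821, 841 and 1224 CPM in buffer and 829.6 CPM in the non-manipulated library. The first library labelled Trim-away was lower than the other two, and all were below buffer (log2 fold change -1.87, SE 0.44, adjusted p = 0.0373 from edgeR). Nip7, which binds the early particle in yeast (chromosome 8, 107056877 to 107060931, plus strand), had 95.1, 278 and 141 CPM under the Trim-away label, against 764, 783, 576 and 861 CPM in buffer and 577 CPM in the non-manipulated library. It too was separate between the groups, with a log2 fold change of -2.12 (standard error 0.38, adjusted p = 0.0146 from edgeR). Rrp15 (chromosome 1, 186720978 to 186749358, minus strand) had 18.1, 62.6 and 60.7 CPM under the Trim-away label, against 169, 147, 141 and 203 CPM in buffer and 184 CPM in the non-manipulated library. The change of Rrp15, a factor of 60S assembly in yeast, lay just inside the threshold (log2 fold change -1.80, SE 0.45, adjusted p = 0.0481 from edgeR).

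Of the 9 other members placed with the early factors, 4 did not overlap between the groups and yet did not pass the test. Rpf1, a protein of the Brix family like RPF2, averaged 146 ± 10.2 CPM (SD, n = 3) under the Trim-away label, against 281 ± 57.9 CPM (SD, n = 4) in buffer (adjusted p = 0.055 from edgeR). The paralogs Rrp1 and Rrp1b averaged 30.7 ± 17.4 and 14.7 ± 7.62 CPM (SD, n = 3) under the Trim-away label, against 87.7 ± 21.8 and 61.2 ± 20.4 CPM (SD, n = 4) in buffer, with adjusted p of 0.13 and 0.06 from edgeR. Nol7 averaged 32.7 ± 12.2 CPM (SD, n = 3) under the Trim-away label, against 91.6 ± 22.3 CPM in buffer (SD, n = 4; adjusted p = 0.0722 from edgeR), and shares 453 exon bases with Ranbp9.

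The remaining 5 early factors overlapped between the groups. They include the RNA methyltransferases of the large subunit, Nop2, which methylates cytosine in 28S ribosomal RNA, and Rrp8, which methylates adenine there. Nop2 averaged 39.1 ± 7.08 CPM (SD, n = 3) under the Trim-away label, against 50.3 ± 19.9 CPM (SD, n = 4) in buffer (adjusted p = 0.749 from edgeR). Rrp8 stood at 0.605 CPM in the first library labelled Trim-away and at 54.9 and 67.4 CPM in the others, against 51.3 to 98.1 CPM in buffer, with 1 library far below all others (adjusted p = 0.669 from edgeR). A stretch of 355 exon bases is shared by Rrp8 and Ilk. Nol8, a nucleolar RNA-binding protein, was among the abundant members and averaged 608 ± 122 CPM (SD, n = 3) under the Trim-away label, against 718 ± 130.5 CPM in buffer (SD, n = 4), with a log2 fold change of -0.24 and an interval of -0.77 to 0.29. Noc2l and Noc3l are relatives of a pair of yeast proteins that accompany the particle from the nucleolus into the nucleoplasm. Noc2l had 0 (where 3 counts would be 0.259 CPM), 11.02 and 9.37 CPM under the Trim-away label, against 2.53 to 38.4 CPM in buffer, and 598 of its exon bases are shared with Samd11. Noc3l was on the other side of 0, at 79.1 ± 32.6 CPM (SD, n = 3) under the Trim-away label against 52.4 ± 32.2 CPM in buffer (SD, n = 4; log2 fold change 0.59, adjusted p = 0.719 from edgeR).

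**Figure D4:**
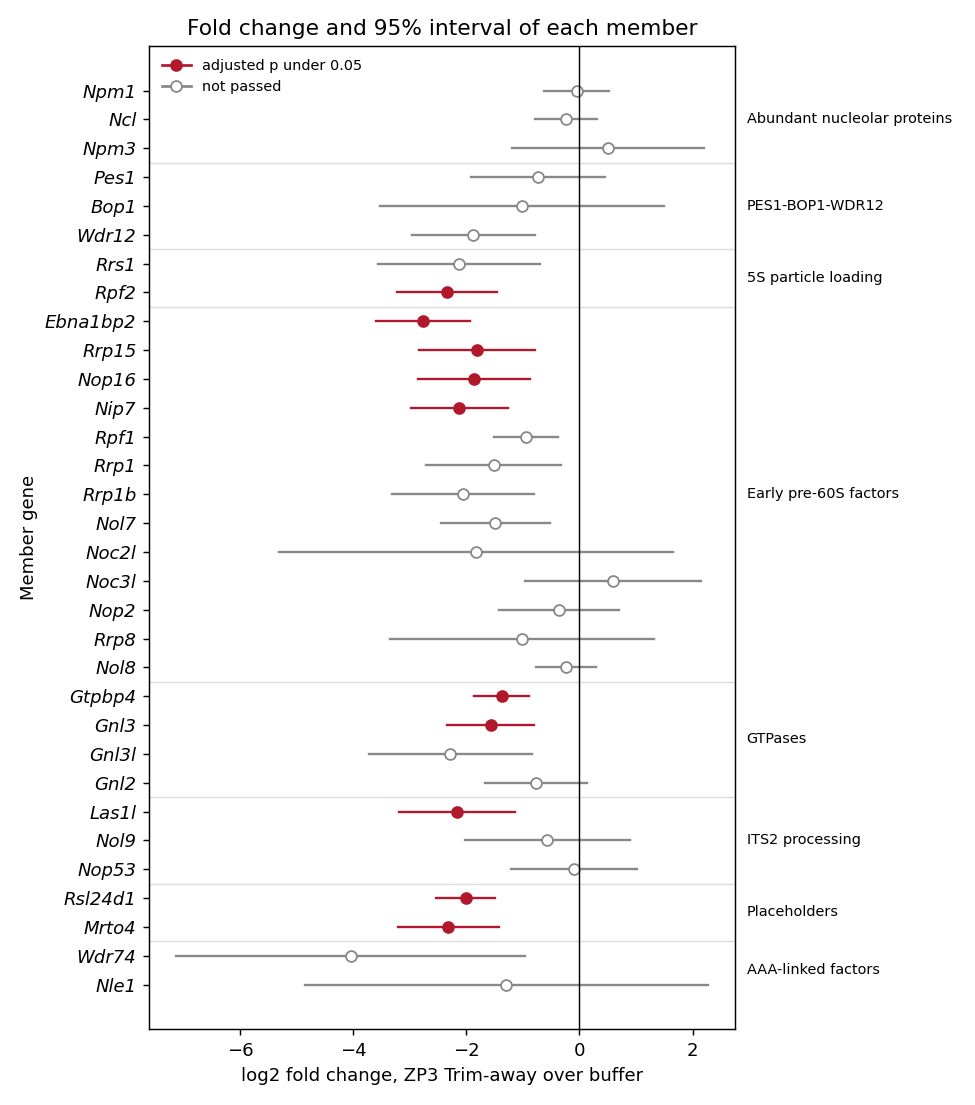
Log2 fold change of ZP3 Trim-away over buffer (horizontal axis) of each member (rows, grouped by role), with points at the estimate and lines for the 95% interval from edgeR; filled red points are the 10 genes with an adjusted p under 0.05. They run from -2.77 (Ebna1bp2) to -1.38 (Gtpbp4), while Npm1, Ncl and Nol8 lie within 0.25 of 0.

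Among the nucleolar GTPases, Gtpbp4 (NOG1) and Gnl3 (nucleostemin) were lower. Gtpbp4, whose yeast relative NOG1 stays on the particle until it reaches the cytoplasm (chromosome 13, 8966331 to 8996083, minus strand), had 181, 234 and 241 CPM in the libraries labelled Trim-away, against 506, 533, 583 and 647 CPM in buffer. The non-manipulated library, at 365 CPM, lay between the groups. The spread of Gtpbp4 within the groups was small, and its log2 fold change of -1.38 (standard error 0.22, adjusted p = 0.01 from edgeR) was the closest to 0 among the 10 that passed. Gnl3, known for its high level in stem cells and dividing cells (chromosome 14, 31012433 to 31019152, minus strand), had 73.6, 179.9 and 107 CPM under the Trim-away label, against 349, 282, 361 and 432 CPM in buffer and 325 CPM in the non-manipulated library. All libraries labelled Trim-away were below buffer (log2 fold change -1.57, SE 0.34, adjusted p = 0.0297 from edgeR). Its relative Gnl3l averaged 12.9 ± 10.95 CPM (SD, n = 3) under the Trim-away label, against 62.6 ± 3.90 CPM in buffer (SD, n = 4), separate but not past the threshold (log2 fold change -2.28, adjusted p = 0.0655 from edgeR). Gnl2, the relative of yeast NOG2, averaged 102 ± 52.5 CPM (SD, n = 3) under the Trim-away label, against 174 ± 49.6 CPM in buffer (SD, n = 4), with overlap (adjusted p = 0.323 from edgeR). Of the exon bases of Gtpbp4, 316 are shared with the gene model Gm48649, and Gnl3 contains Snord69 (80 shared bases).

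LAS1L is the endonuclease that cuts the second internal spacer (ITS2) of the ribosomal RNA precursor, NOL9 is the kinase that acts with it, and NOP53, in yeast, calls in the exosome that trims the cut end. Las1l (X chromosome, 95935335 to 95956962, minus strand) had 23.3, 48.0 and 39.1 CPM in the libraries labelled Trim-away, against 279, 154, 123 and 105 CPM in buffer and 204 CPM in the non-manipulated library. The groups were separate although buffer varied widely (log2 fold change -2.17, SE 0.45, adjusted p = 0.0258 from edgeR). Its partner Nol9 averaged 15.7 ± 4.51 CPM (SD, n = 3) under the Trim-away label, against 23.2 ± 5.58 CPM in buffer (SD, n = 4), and overlapped between the groups (log2 fold change -0.57, interval -2.02 to 0.89). Nop53 averaged 77.4 ± 41.2 CPM (SD, n = 3) under the Trim-away label, against 82.9 ± 35.3 CPM in buffer (SD, n = 4), with a log2 fold change of -0.10 and an interval of -1.21 to 1.01. The difference between Las1l and these partners was not tested.

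Both placeholders of the set were lower. RSL24D1 and MRTO4, as known for their yeast relatives, occupy sites on the particle that a ribosomal protein takes over later, RPL24 in the first case and the stalk protein RPLP0 in the second. Rsl24d1 (chromosome 9, 73113426 to 73123333, plus strand) had 155, 166 and 206 CPM in the libraries labelled Trim-away, against 714, 641, 618 and 861 CPM in buffer and 697 CPM in the non-manipulated library. Its small spread within the groups gave the smallest p of the members (log2 fold change -2.01, SE 0.23, adjusted p = 0.00545 from edgeR), and 226 of its exon bases are shared with Gm20509. Mrto4 (chromosome 4, 139347435 to 139352576, minus strand) had 30.1, 26.5 and 66.2 CPM under the Trim-away label, against 222, 173, 221 and 199 CPM in buffer and 208 CPM in the non-manipulated library. The log2 fold change was -2.32 (SE 0.39, adjusted p = 0.0122 from edgeR), with no overlap.

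WDR74 and NLE1 link the particle to ATPases of the AAA family, which pull assembly factors off it. Wdr74 had 4, 4 and 12 counts in the libraries labelled Trim-away, against 184, 167, 167 and 120 counts in buffer and 343 counts in the non-manipulated library. In CPM these were 0.345, 0.261 and 0.775 under the Trim-away label, against 7.06 to 8.60 in buffer, a wide gap. At so few counts the estimate was imprecise, with a log2 fold change of -4.04, an interval of -7.13 to -0.96 and an adjusted p of 0.12 from edgeR. Nle1 was low in all libraries, at 0, 3.91 and 8.14 CPM under the Trim-away label against 6.61 to 15.5 CPM in buffer (adjusted p = 0.736 from edgeR).

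The order of levels among the members is given as a description, with no test. Per kilobase of exon, the leading members in buffer were Nop16 at 546 ± 112, Rsl24d1 at 413 ± 63.8 and Npm1 at 399 ± 51.9 CPM (SD, n = 4), and neighbours in this order overlapped in mean ± SD. In the libraries labelled Trim-away, Npm1 led at 387 ± 134 CPM, followed by Nop16 at 149.6 ± 83.7 and Rsl24d1 at 102 ± 15.7 CPM (SD, n = 3), where only the last pair overlapped in mean ± SD. Nol8 and Ncl held places 4 and 6 in the libraries labelled Trim-away, against places 7 and 12 in buffer. The non-manipulated library had the same first 6 members, in the same order, as buffer.

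Some other genes of the same pathway, not among the 32 and also listed with earlier results of these data known, were lower as well. Of 33 tested assembly factors of the large subunit outside the set, 6 were lower and 0 higher (Eif6, Rpl7l1, Nmd3, Urb1, Znhit6 and Nsa2), with a median log2 fold change of -1.08. Instead of 6, there were 2 without buffer 1, 3 or 4, there were 3 without Trim-away 3 or buffer 2, and there were 4 without Trim-away 1 or 2. Eif6, which keeps the finished 60S subunit from joining the small subunit too early, had 167, 309 and 349 CPM in the libraries labelled Trim-away, against 1033, 978, 1089 and 862 CPM in buffer and 1019.5 CPM in the non-manipulated library (log2 fold change -1.85, SE 0.28, adjusted p = 0.00961 from edgeR). Its values did not overlap. Nmd3, the adaptor for export of the subunit, averaged 133 ± 39.5 CPM (SD, n = 3) under the Trim-away label against 369.6 ± 93.2 CPM in buffer (SD, n = 4), and Rpl7l1 averaged 32.7 ± 6.57 CPM (SD, n = 3) under that label against 139 ± 26.7 CPM in buffer (SD, n = 4), with adjusted p of 0.0288 and 0.0108 from edgeR. Urb1 had no count in the libraries labelled Trim-away, against 4.86 to 12.2 CPM in buffer, at least 105-fold lower when 3 counts over the group are taken as the limit of detection, which covers counting error only. It was also nearly absent from the non-manipulated library (0.0437 CPM). Of 12 genes of nucleolar organisation, 3 were lower and 0 higher, namely Nop58 and Dkc1, core proteins of small nucleolar ribonucleoproteins, and Lyar, with log2 fold changes of -1.88, -1.05 and -1.74 and adjusted p of 0.00421, 0.0271 and 0.0334 from edgeR. Instead of 3, there was 1 without Trim-away 2 or buffer 1, 2 or 4, and there were 2 without Trim-away 1, Trim-away 3 or buffer 3. Npm2, the oocyte relative of Npm1, had 88.0, 16.2 and 24.7 CPM under the Trim-away label, against 33.2 to 46.4 CPM in buffer (log2 fold change 0.15, adjusted p = 0.937 from edgeR), and the sign of its change depended on the first library labelled Trim-away (-0.92 without it) and on the tool (-0.36 with limma-voom). Of 12 tested genes of oocyte and embryo identity, measured to describe the stage, 0 were lower and 2 higher, the maternal transcripts Bmp15 and Nlrp5, with log2 fold changes of 2.17 and 1.62 (adjusted p = 0.0109 and 0.0366 from edgeR). Of the 10 others, the maternal transcripts Zp3, Oosp1 and Dppa3 lay below all buffer libraries (log2 fold changes -1.36, -0.60 and -0.90) and the two-cell genes Zscan4d and Zfp352 above all of them (1.27 and 1.06), none past the threshold, and 5 overlapped.

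Among the libraries labelled Trim-away, the one with Trim21 reads was the lowest for 20 of the 32 members. It was the lowest for 9 of the 10 that passed the test, Mrto4 being the exception. The share of all genes for which it was the lowest was not counted. It also had the fewest total counts (13228428) and the fewest genes with a count (13627). In a fit of this library alone against buffer, made after seeing the data and taking it to vary like the buffer libraries, 13 members were lower, among them 9 of the 10 above (Las1l had an adjusted p of 0.0639), along with 5.12% of all genes. The median of all genes was then -1.24 and that of the members -2.28 on the log2 scale. When each of the 7 libraries was left out in turn, 6 to 8 members were lower (1.54% to 3.06% of all genes), and Rsl24d1, Ebna1bp2, Gtpbp4, Rpf2 and Mrto4 passed each time. The count was 6 without Trim-away 3, buffer 1 or buffer 2, and the calls of Nip7 (without Trim-away 3), Nop16, Rrp15, Gnl3 and Las1l were those that were lost.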

How the data were processed

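The authors trimmed single reads with Trimmomatic, aligned them to GRCm38 with HISAT2 and deposited raw counts of reads per Ensembl gene for 8 libraries, and 0 per-sample columns were left unmapped. Whether the counting used strand is not stated in the methods or labels, so genes that share exons cannot be told apart. The deposited RPKM values (another unit, computed by the authors over a gene width that includes introns) were used in alternatives only. Genes were filtered with filterByExpr, scaled by TMM and tested with the quasi-likelihood test of edgeR 4.0.16 (R 4.3.3), 3 libraries labelled ZP3 Trim-away over 4 buffer libraries, with no covariate, and adjusted p under 0.05 was called. Intervals cover 95%. Alternatives were DESeq2 1.42.0, limma 3.58.1 (voom, and log2(RPKM + 0.1) or log2(RPKM + 0.01)), DESeq2's size factors, no filter, each library left out, the replicate number as a block and, after seeing the data, 2 more. The code was tested on simulated data, whose coefficient of variation (0.224) was far below that of the libraries (1.16), so that this bears on the code and not on power. Positions and exon lengths are those of GENCODE M21. Values in every library are given for members that passed and for Ncl, Npm1, Npm3, Pes1, Bop1 and Wdr12. Other members are given by means or ranges, except where a library stood apart (Noc2l, Rrp8, Wdr74 and Nle1, chosen after their values were seen). Of the other lists, up to 4 genes with the smallest p among those that passed are named, plus Npm2 and Eif6. Further genes of these lists, such as Rpl11, are named after their values were seen. The members and lists were chosen with earlier results of these data known. Trim21 and the markers check labels and tissue.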

Additional observations from a re-analysis of the deposited data

Results flagged for a closer look

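Ncl stood apart in 1 buffer library. Buffer 2 had 378 CPM, while the other 3 buffer libraries had 602, 606 and 611 CPM, so that the gap took up 0.962 of the range of the group, above the limit of Dixon's test at 95%. The level of each member and their sum were examined in this way in the buffer group (33 sets of 4 values), and chance flags about 1 in 20. Without buffer 2 the log2 fold change of Ncl was -0.38 (adjusted p = 0.433 from edgeR), against -0.24 with all libraries.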

How the results depend on the processing

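The 10 members that passed had a negative log2 fold change in all 150 of their alternative fits, and no member was higher in any alternative. DESeq2 called 18 members and 14 other assembly factors lower, and limma on log2(RPKM + 0.1) or log2(RPKM + 0.01) called 16 and 11, at a share of all genes lower of 8.32% and 7.25%. DESeq2 added Rrs1, Rpf1, Wdr12, Wdr74, Rrp1, Rrp1b, Nol7 and Gnl3l, at a share of all genes lower of 9.98%. DESeq2 also called 1361 genes lower and 1001 higher in all, against 534 and 407. With the replicate number as a block, 0 members, 0 other factors and 0 of all genes passed in edgeR. At an unadjusted p under 0.05 in this fit, 16 members were lower and 0 higher. That threshold was reached by 2050 of all genes, in either direction. The labels do not say whether libraries with the same replicate number share a collection. The correlation of their deviations from the group means was -0.07, 0.01 and -0.01 for replicates 1 to 3, which cannot decide this. The block fit also estimates a level for each replicate number, which leaves little to measure the spread with so few libraries. With 1 library left out, 6 to 8 members and 2 to 4 other factors were lower, and all genes lower numbered 236 to 472. Signs turned only in genes that never passed. Npm1 was 0.0206 with DESeq2 and 0.0206 with its size factors in edgeR, 0.41 without the libraries low in Trim21 and -0.37 to 0.0901 with 1 library left out. Nol8 was 0.0193 without the libraries low in Trim21. Npm2 was -0.36 with limma-voom, -0.27 and -0.28 on RPKM, -0.32 with the block and -0.92 to 0.53 with 1 library left out, and Nop53 was -0.61 to 0.16 with 1 library left out. The cause was not tested. The common coefficient of variation between libraries was 1.16, which limits what 3 against 4 libraries show for genes such as Wdr74, Noc2l and Nle1.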
